A study of Homo sapiens with 23 samples.

Results

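Transcripts of the matrix metalloproteinases (MMP), their tissue inhibitors (TIMP), the ADAM membrane proteases, the secreted ADAMTS proteases and the ADAMTS-like (ADAMTSL) proteins were followed in drug-naive melanoma cells and in 7 drug-resistant clones derived from them. The set was defined by gene symbol alone: MMP, ADAM, ADAMTS or ADAMTSL followed by a number, or TIMP1 to TIMP4. It held 71 of the 35438 genes in the deposited table, namely 22 MMP, 4 TIMP, 21 ADAM, 19 ADAMTS and 5 ADAMTSL genes. Poly(A) RNA was sequenced from WM989 A6-G3, a BRAF-mutant human melanoma line bottlenecked to single cells, and from 7 isolates of it, with 3 libraries per group except clone 11, which had 2. Clones 7, 8 and 9 had grown out in 1 µM vemurafenib, a BRAF inhibitor, and clones 10, 11, 12 and 13 in 250 nM dabrafenib, another BRAF inhibitor, combined with 2.5 nM trametinib, a MEK inhibitor. All samples carry the genotype label WT, and the clones were kept in their drugs while the untreated cells received none, so resistance and the presence of drug cannot be told apart. Each clone is the progeny of 1 colony, and an arm of the study is its 3 or 4 clones.

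MMPs are zinc-dependent proteases that cut collagens, other matrix proteins and cell-surface proteins, and most are secreted as inactive proenzymes. TIMPs bind the active site of MMPs, and TIMP3 also inhibits ADAM17 and several ADAMTS enzymes. ADAM proteases release the ectodomains of membrane proteins such as growth factor precursors, whereas ADAMTS proteases act in the matrix on proteoglycans, procollagens and microfibril proteins, and the ADAMTSL proteins resemble their non-catalytic portion. In melanoma these families are studied for their parts in invasion, growth factor release and matrix remodelling.

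Levels are given as TPM, transcript abundance per fixed total of transcripts, after scaling between libraries, called scaled TPM below. TPM corrects for transcript length, so levels of different genes can be compared, but it keeps no sequencing depth, and the depth of each library is unknown. Clone 10 replicate 1 had 14415 genes above 0, and the other libraries had 18671 to 24039. Scaling factors ran from 0.743, in clone 8 replicate 3, to 1.14. The summed level of 6 melanocyte lineage genes was 11951 to 12317 scaled TPM in untreated libraries and 20.9 to 465 in clone libraries, and all 6 fell, so the clones lacked most of the lineage signal of a melanocyte-derived line. The summed level of 6 fibroblast genes was 58.4 to 68.2 in untreated libraries and 2131 to 7769 in clone libraries, and all 6 rose. Markers of other cells were low: the immune genes PTPRC, CD3E, CD14 and ITGAM summed to 0.790 to 5.67 scaled TPM in the clone libraries (1.49 to 1.71 in untreated), 4 endothelial genes to 1.46 to 5.40 (1.40 to 1.60 in untreated) and 5 keratinocyte genes to 0.292 to 2.76 (0.776 to 0.813 in untreated). In these lists CD3E, CD14, ITGAM, CDH5, KRT5, KRT1, CDH1 and EPCAM were under 1 in every library, whereas some others were called higher in single clones. PTPRC was higher in clone 8 (4.12 scaled TPM against 1.24 untreated), KRT14 in clone 11 (1.86, listed at 0 in untreated), PECAM1 in clone 13 (1.85 against 0.284) and VWF in clones 7, 12 and 13. In bulk RNA fewer cells of a type and less RNA per cell cannot be told apart, and the part of the marker shift in the protease results was not tested.

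A gene was tested if its TPM was at least 1 in at least 2 libraries, which left 47 of the 71 members and 15657 genes in all. A gene was called when its log2 fold change, on the log2(scaled TPM + 1) scale, was at least 1 in size and its Benjamini-Hochberg adjusted p from limma was under 0.05. Outside the comparison of drug arms, SEs and p-values rest on the spread between libraries within groups. Those for the mean of the clones therefore leave out the variation between clones. Averaged over the 7 clones, 19 members rose and 3 fell relative to untreated cells, with a median log2 difference of 0.59 over the 47. Across all tested genes 10.9% rose and 7.91% fell, with a median of -0.01. Several members that rose, among them ADAMTS6, ADAMTS14 and MMP19, were under 1 in every untreated library. They passed the filter only through the clones, where they were high, so the shares and medians depend on the filter. Without it the same 19 members rose and 3 fell, of 70 tested, beside 1693 and 1230 of 30088 genes. By family, 6 of 14 tested MMP genes rose and 2 fell, 2 of 3 TIMP genes rose, 1 of 12 ADAM genes rose, 8 of 14 ADAMTS genes rose and 1 fell, and 2 of 4 ADAMTSL genes rose. The medians were 0.76 for MMP, 1.78 for TIMP, 0.14 for ADAM, 1.34 for ADAMTS and 1.15 for ADAMTSL genes. The 24 members not tested stayed at or under 0.621 scaled TPM in every library, a value reached by ADAM28. They include the collagenase MMP13, the matrilysin MMP7, the stromelysin MMP10, ADAM12 at no more than 0.478, TIMP4 at no more than 0.243, and MMP28, which was listed at 0 throughout.

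Promoter sequences of 43 members, 28 of them tested, were held in RefSeq's promoter table (GRCh38.p14). The 250 bases before the annotated start are printed for the 10 members that were called the same way in at least 6 clones and have an entry. MMP8 and ADAMTS17 were lower in all 7 clones. ADAMTS7, ADAMTS12, MMP11 and TIMP1 were higher in all 7, and ADAMTS6, ADAMTSL1, ADAMTSL4 and TIMP3 in 6. Capitals mark matches, read on both strands, to 6 sets of letters, and 5 of the 10 stretches hold one or more. The E-box letters are CACGTG, known to be bound by basic helix-loop-helix factors such as MITF, and the related CATGTG. The TEAD core is GGAATG. The AP-1 letters are TGACTCA, with the variant TGAGTAA, which was added after the TIMP1 sequence was seen. The TATA letters are TATAAA. The SP1 letters GGGCGG were also searched and are left in lower case because they are common.
MMP8: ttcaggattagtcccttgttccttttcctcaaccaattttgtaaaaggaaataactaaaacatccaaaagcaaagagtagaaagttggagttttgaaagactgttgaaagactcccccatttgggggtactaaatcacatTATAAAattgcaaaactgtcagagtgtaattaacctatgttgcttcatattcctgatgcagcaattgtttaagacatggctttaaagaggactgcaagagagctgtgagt
ADAMTS17: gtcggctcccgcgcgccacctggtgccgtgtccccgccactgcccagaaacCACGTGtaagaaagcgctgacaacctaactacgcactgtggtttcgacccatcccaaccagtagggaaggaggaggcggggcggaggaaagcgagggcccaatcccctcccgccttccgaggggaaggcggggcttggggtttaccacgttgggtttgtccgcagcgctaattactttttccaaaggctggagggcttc
ADAMTS12: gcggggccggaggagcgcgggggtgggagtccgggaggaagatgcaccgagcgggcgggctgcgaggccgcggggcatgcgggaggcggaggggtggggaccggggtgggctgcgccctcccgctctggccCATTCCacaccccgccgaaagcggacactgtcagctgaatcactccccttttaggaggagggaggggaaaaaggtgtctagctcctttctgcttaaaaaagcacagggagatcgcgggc
TIMP1: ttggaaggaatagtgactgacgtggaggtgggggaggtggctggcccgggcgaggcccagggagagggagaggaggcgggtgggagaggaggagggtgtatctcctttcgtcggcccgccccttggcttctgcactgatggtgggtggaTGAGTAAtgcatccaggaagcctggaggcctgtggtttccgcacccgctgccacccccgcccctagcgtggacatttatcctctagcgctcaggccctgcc
ADAMTS7: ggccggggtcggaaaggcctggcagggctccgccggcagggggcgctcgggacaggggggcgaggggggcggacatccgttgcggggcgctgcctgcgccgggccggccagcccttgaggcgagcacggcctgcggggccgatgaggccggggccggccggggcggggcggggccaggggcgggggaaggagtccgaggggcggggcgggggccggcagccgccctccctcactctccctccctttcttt
MMP11: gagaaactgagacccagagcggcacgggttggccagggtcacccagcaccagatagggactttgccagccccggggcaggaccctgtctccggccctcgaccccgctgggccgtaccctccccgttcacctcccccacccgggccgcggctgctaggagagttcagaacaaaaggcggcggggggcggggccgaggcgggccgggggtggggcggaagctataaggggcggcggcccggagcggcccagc
ADAMTS6: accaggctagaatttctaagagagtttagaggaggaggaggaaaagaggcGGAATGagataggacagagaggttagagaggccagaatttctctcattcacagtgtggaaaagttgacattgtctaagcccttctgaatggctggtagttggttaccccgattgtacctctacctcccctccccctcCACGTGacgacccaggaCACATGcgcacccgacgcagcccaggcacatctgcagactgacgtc
ADAMTSL1: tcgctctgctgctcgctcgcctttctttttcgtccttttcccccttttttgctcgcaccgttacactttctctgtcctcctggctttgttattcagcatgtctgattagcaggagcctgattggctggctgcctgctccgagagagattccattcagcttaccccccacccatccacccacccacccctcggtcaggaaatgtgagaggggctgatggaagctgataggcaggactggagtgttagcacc
ADAMTSL4: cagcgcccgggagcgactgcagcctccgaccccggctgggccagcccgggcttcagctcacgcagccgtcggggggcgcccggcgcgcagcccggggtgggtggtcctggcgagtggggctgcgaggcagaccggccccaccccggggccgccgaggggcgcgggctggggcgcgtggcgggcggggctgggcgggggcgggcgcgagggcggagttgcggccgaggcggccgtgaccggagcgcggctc
TIMP3: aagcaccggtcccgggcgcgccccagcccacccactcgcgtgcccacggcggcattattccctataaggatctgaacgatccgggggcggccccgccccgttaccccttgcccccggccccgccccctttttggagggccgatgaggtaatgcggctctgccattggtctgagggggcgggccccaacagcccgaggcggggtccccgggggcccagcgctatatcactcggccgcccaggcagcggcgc
The MMP8 stretch is chr11:102724955-102725204 on the minus strand, that of ADAMTS17 is chr15:100341976-100342225 on the minus strand, and that of ADAMTS12 is chr5:33891991-33892240 on the minus strand. ADAMTS6 is read from chr5:65481921-65482170 on the minus strand and TIMP1 from chrX:47582186-47582435 on the plus strand. ADAMTS7 is read from chr15:78811465-78811714 on the minus strand and MMP11 from chr22:23772599-23772848 on the plus strand. The remaining stretches are on the plus strand, at chr9:18473903-18474152 for ADAMTSL1, chr1:150549158-150549407 for ADAMTSL4 and chr22:32801455-32801704 for TIMP3. The letters CACGTG begin 199 bases upstream of the start in ADAMTS17, which fell, and 63 bases upstream in ADAMTS6, which rose, with CACATG, the reverse complement of CATGTG, at 46. The TEAD core begins at 200 in ADAMTS6 and, as its reverse complement CATTCC, at 119 in ADAMTS12, whereas MMP8 has TATAAA at 110 and TIMP1 has TGAGTAA at 101. Over 27305 promoters of this length, 6.49% held CACGTG, 9.54% CATGTG, 11.9% the TEAD core, 4.16% TGACTCA, 2.25% TGAGTAA and 11.1% TATAAA. Among the 43 members with an entry the counts were 5, 3, 4, 1, 1 and 8, in that order. Of the 12 members that rose and have an entry, 2 held the TEAD core and 0 held TGACTCA. The SP1 letters were in 29 of the 43 members and 9 of these 12, against 42.3% of all promoters. These matches describe the printed letters and no binding was measured.

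MMP2, the gelatinase that cuts denatured collagen and basement membrane collagen, had the largest log2(scaled TPM + 1) difference of any member. The untreated libraries had 18.0, 21.0 and 20.0 scaled TPM. Clone 7 had 1589, 1488 and 1316, clone 8 had 292, 296 and 371, and clone 9 had 788, 753 and 835. Clone 10 had 1786, 1633 and 1139.8, clone 11 had 1898 and 1831, clone 12 had 2769, 2136 and 1312, and clone 13 had 3053, 2641 and 1698. Every clone library was far above the untreated ones, and clone 8 was the lowest of the clones. The mean of the clones stood 76.3-fold above 19.7 ± 1.51 (SD, n = 3), from 16.3-fold in clone 8 to 125-fold in clone 13, with a log2 difference of 5.93 (SE 0.18, adjusted p = 8.29e-16). Linear ratios were larger for members near 0 in untreated cells, at 362-fold for ADAMTS15 and 350.1-fold for ADAMTS6. MMP2 moved from the tenth to the second most abundant member, and its share of all MMP transcripts went from 3.60% ± 0.27 in untreated cells to between 39.4% and 78.6% as clone means. The other gelatinase, MMP9, had 0.810 ± 0.127 scaled TPM in untreated cells (SD, n = 3), with clone means of 6.60 in clone 8 and 4.98 in clone 11 at the top and 0.955 in clone 10 at the bottom. MMP9 was called higher in clones 8, 11 and 13, and its mean log2 difference of 0.93 (adjusted p = 0.00118) was under the fold minimum.

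The interstitial collagenases MMP1 and MMP8, which cut fibrillar collagen, moved in opposite directions. MMP1 had 5.31, 4.88 and 4.48 scaled TPM in untreated cells. Clone 7 reached 516, 578 and 553, whereas clone 13 had 1380.5, 539 and 173. Clone 12 spread from 29.2 to 356, and clones 8, 9, 10 and 11 lay between 21.5 and 47.4. MMP1 was thus high in clone 7 and in most libraries of clones 12 and 13, and moderately above untreated elsewhere, with no clone library overlapping the untreated ones. The log2 difference was 3.99 (SE 0.50, adjusted p = 1.47e-06), called in all 7 clones, and not in clone 11 (1.93, adjusted p = 0.134) without its replicate 2. Replicates disagreed most in clones 13 and 12, where the SD of MMP1 was 619 around a mean of 698 and 164 around 187. In both clones MMP1 fell in the order of the replicate numbers, in clone 12 from 356 to 176 to 29.2. In clone 7 the SD was 31.5 around 549.

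MMP8 had 15.4, 17.0 and 17.2 scaled TPM in untreated cells and from 0.156 to 2.07, with a median of 0.452, over the 20 clone libraries. The groups did not overlap, and clones 7 and 13 held the highest clone means, 1.34 and 1.41. MMP8 fell by 3.46 on the log2 scale (SE 0.12, adjusted p = 6.44e-15), and the mean of the clones was 25.2-fold below untreated. It was called lower in all 7 clones. MMP3, a stromelysin with broad matrix substrates that can activate procollagenase, was at 0.0173, 0.125 and 0.244 in untreated cells. It reached 15.4, 17.0 and 18.8 in clone 7 and 13.7, 12.4 and 5.32 in clone 13, and the other clone libraries lay between 0.423 and 4.44. MMP3 rose by 1.87 (SE 0.24, adjusted p = 1.67e-06) and was called in all clones but 8 and 9, and not in clone 11 (0.66) without its replicate 2. Stromelysin-3, MMP11, rose in all 7 clones, from 0.311 to 0.774 in untreated libraries to between 1.83 and 9.40 in clone libraries, a log2 difference of 1.82 (adjusted p = 2.27e-07).

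**Figure D1:**
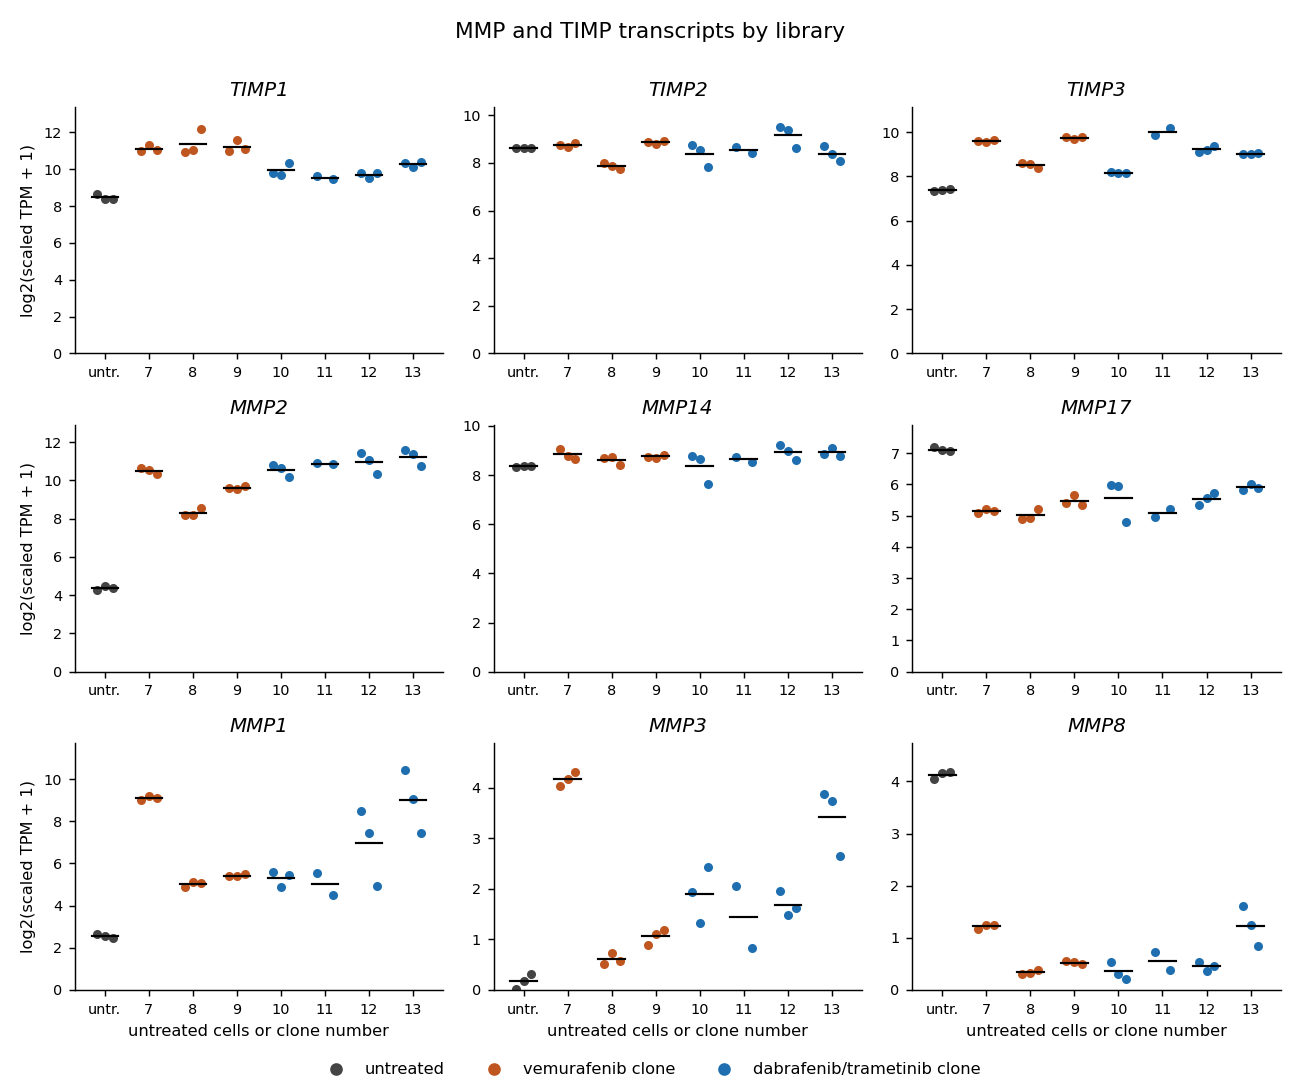
Levels of 3 TIMP and 6 MMP genes in each library, as log2(scaled TPM + 1), for untreated cells and clones 7 to 13, with points for libraries and bars for group means. MMP2 and MMP1 are higher and MMP8 and MMP17 lower than untreated in every clone library, whereas TIMP2 and MMP14 overlap the untreated level.

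In RefSeq's gene order on chromosome 11 the MMP genes of this cluster follow each other as MMP7, MMP20, MMP27, MMP8, MMP10, MMP1, MMP3, MMP12 and MMP13. MMP8, which fell, and MMP1 and MMP3, which rose, are separated only by MMP10. MMP7, MMP10, MMP12, MMP13 and MMP27 were not tested because they were too low. MMP20, enamelysin, known for its part in tooth enamel, was at 27.9 ± 2.28 scaled TPM in untreated cells and between 14.6 and 22.2 in the clone means. Every clone library of MMP20 was below every untreated library, and its log2 difference of -0.66 (adjusted p = 0.00053) was under the fold minimum. Within the clones, the highest means of MMP1, MMP3 and MMP8 were all found in clones 7 and 13.

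**Figure D2:**
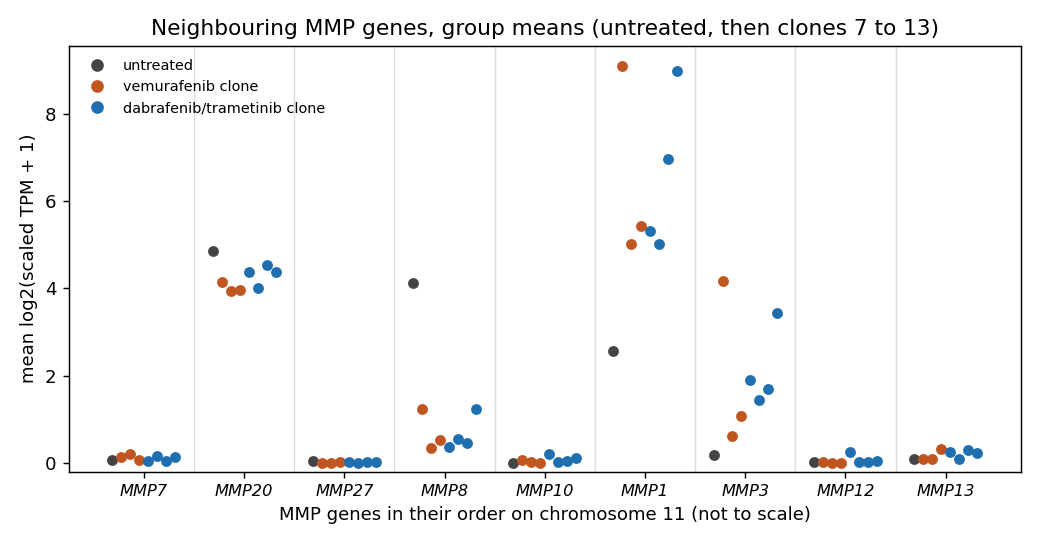
Group means of log2(scaled TPM + 1) for 9 MMP genes in their order on chromosome 11, not to scale; within each gene the points run from untreated to clone 13. MMP8 drops in the clones next to rising MMP1 and MMP3, and 5 of the 9 stay near 0.

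Of the 6 membrane-type MMPs tested, which act at the cell surface, 1 rose and 1 fell. MMP14, the main activator of pro-MMP2, was at 324, 329.8 and 329 scaled TPM in untreated cells and from 199 to 592, with a median of 429, in the clone libraries. The groups overlapped, and the log2 difference of 0.36 (SE 0.17) had an adjusted p of 0.0683. MMP17, which is anchored by glycosylphosphatidylinositol, was at 145, 135 and 132 in untreated cells and at 26.6 to 62.9, with a median of 39.8, in the clone libraries. It lay below untreated in every clone library and fell by 1.72 (SE 0.16, adjusted p = 3.00e-08), in all 7 clones. MMP24 rose by 1.06 (adjusted p = 5.46e-06), from 2.97 ± 0.294 to clone means of 4.88 to 10.9, and was called in clones 7, 12 and 13. MMP15 had 1.68 ± 0.143 in untreated cells and clone means of 0.825 to 3.36, with a log2 difference of -0.07.

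MMP16 separated the clones. Untreated cells had 1.25, 1.67 and 1.81 scaled TPM, clone 7 had 6.83, 5.02 and 5.91, clone 13 had 4.66, 5.73 and 3.09, and clone 10 had 0.267, 0.317 and 0.190. Clones 7 and 13 were above the untreated range and clone 10 below it, and MMP16 was called higher in clones 7 and 13 and lower in clone 10. Clone 9, at 3.70, 2.53 and 4.36, and clone 11, at 4.24 and 3.57, were also above the untreated range. Their differences, 0.80 and 0.93, were under the fold minimum. The difference in clone 10, -1.03, was at the fold minimum and was not called without clone 10 replicate 3 (-0.98) or without untreated replicate 2 (-0.9999) or 3 (-0.96), and that in clone 13, 1.07, was not called without clone 13 replicate 2 (0.91) or untreated replicate 1 (0.98). Calls of both directions in different clones occurred for 0.422% of all tested genes and for 2 members, MMP16 and ADAMTS9. MMP19, a secreted MMP with basement membrane substrates, rose by 1.50 (adjusted p = 2.13e-08), from 0.0768 ± 0.0477 to clone means of 0.899 to 3.72.

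Of the inhibitors, TIMP1 and TIMP3 rose and TIMP2 did not pass the test. TIMP1, a secreted inhibitor of most soluble MMPs, was at 401, 339.6 and 328 scaled TPM in untreated cells. It was at 2036, 2555 and 2119 in clone 7, at 1945, 2095 and 4735 in clone 8, and at 2055, 3031 and 2156 in clone 9. It was at 873, 827 and 1313 in clone 10, at 786 and 699 in clone 11, at 883, 726 and 874 in clone 12, and at 1289.9, 1126 and 1335 in clone 13. All clone libraries exceeded the untreated ones, and the 9 vemurafenib libraries lay above the 11 dabrafenib/trametinib libraries without overlap. The log2 difference was 1.98 (SE 0.20, adjusted p = 5.18e-08), called in each clone. Clone 8 replicate 3, the highest TIMP1 library, is also the one with the lowest scaling factor, and without it clone 8 had 2019.8 against 2237 in clone 7 and 2414 in clone 9. Without clone 11 replicate 2 the TIMP1 difference in clone 11 was 0.98 and not called (adjusted p = 0.0543).

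TIMP3, which binds the extracellular matrix and has the widest range of targets, was at 163, 168 and 173 scaled TPM in untreated cells. Clone 11 had 926 and 1155, clone 9 had 870.3, 815 and 870.4, and clone 10 had 294, 282 and 284. TIMP3 was above untreated in all clone libraries, with clone 10 the lowest and clone 11 the highest. It rose by 1.78 (SE 0.07, adjusted p = 1.27e-13) and was called in every clone but clone 10, where the difference was 0.77. TIMP2, which binds MMP14 in the activation of pro-MMP2, was at 393, 393 and 394 in untreated cells and from 213 to 726, with a median of 405, in the clone libraries. These ranges overlapped, and the log2 difference of -0.05 (SE 0.16) had an adjusted p of 0.806. Among the clones TIMP2 was lowest in clone 8, at 234 ± 20.1, and highest in clone 12, at 599 ± 179 (SD, n = 3 each), and the F test among clones called it (range 1.31, adjusted p = 0.00148).

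The summed MMP transcripts were 546 ± 3.71 scaled TPM in untreated cells and between 811 and 3771 as clone means, and the summed TIMP transcripts 917 ± 34.3 and between 1636 and 3732. TIMP transcripts outnumbered MMP transcripts by 1.68 ± 0.0631 in untreated cells (SD, n = 3). The ratio was 1.34 ± 0.135 in clone 7, 4.33 ± 1.85 in clone 8 and 2.78 ± 0.459 in clone 9. It was 0.870 ± 0.332 in clone 10, 0.909 ± 0.0639 in clone 11 (n = 2), 0.766 ± 0.255 in clone 12 and 0.611 ± 0.236 in clone 13. Clones 8 and 9 were thus above the untreated ratio and the other 5 below it, and individual libraries ranged from 1.19 to 6.47 in the vemurafenib clones and from 0.441 to 1.25 in the dabrafenib/trametinib clones. The highest ratio, 6.47, came from clone 8 replicate 3. From replicate 1 to 3 the MMP sum fell in clone 10 (2371, 2174 and 1456), clone 12 (3820, 2918 and 1830) and clone 13 (5026, 3862 and 2424). It also fell in clone 7 (2740, 2612 and 2376) and from replicate 2 to 3 in clone 11 (2450 and 2296). Clones 8 and 9 and untreated cells showed no such order, and its cause was not tested. These sums are transcript levels and say nothing of active enzyme, and they were given no test.

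**Figure D3:**
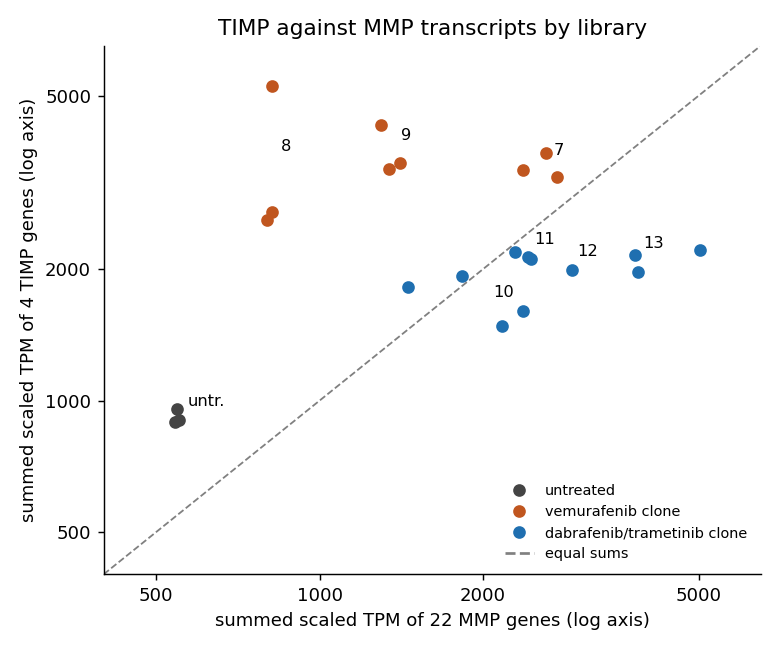
Summed scaled TPM of the 4 TIMP genes against that of the 22 MMP genes in each of the 23 libraries, both on log axes, with a dashed line of equal sums; numbers name the clones. Every clone library lies above and to the right of the untreated ones. TIMP sums were 2588 to 5275 in vemurafenib clones and 1479.5 to 2215 in dabrafenib/trametinib clones. MMP sums overlapped between the arms, at 801 to 2740 and 1456 to 5026.

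In the ADAM family, 11 of 12 tested genes were not called when the clones were averaged. ADAM10, the constitutive sheddase of Notch receptors and cadherins, was at 39.9 ± 5.90 scaled TPM in untreated cells and between 25.7 and 42.9 as clone means (log2 difference -0.29, adjusted p = 0.171). ADAM17, the sheddase of tumour necrosis factor and several EGF receptor ligands, was at 10.5 ± 1.69 and between 9.93 and 22.5 (0.51, adjusted p = 0.0689). ADAM15 was at 79.1 ± 6.44 and between 52.4 and 66.3, with a log2 difference of -0.48 (adjusted p = 0.00347) that was under the fold minimum. The 3 sheddases therefore differed from untreated by less than the fold minimum. ADAM17 was just under it in clones 10 and 13, at 0.98 in each (adjusted p = 0.0111 and 0.0118). It was called in these clones when some single libraries were left out. ADAM9, a widely expressed membrane protease, was at 30.1, 33.6 and 36.0 in untreated cells, at 80.0, 102 and 104 in clone 10, and at 31.6, 31.4 and 16.8 in clone 8. Clone 10 was well above untreated and clone 8 was not, and ADAM9 was called higher in clones 10, 12 and 13. Its mean log2 difference was 0.88 (adjusted p = 0.000352).

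ADAM19, known for its part in neuregulin shedding and heart development, was the ADAM gene that rose. It was at 0.570, 0.581 and 0.617 scaled TPM in untreated cells, at 26.2 and 37.8 in clone 11, at 10.3, 9.39 and 8.12 in clone 8, and at 0.667, 0.943 and 2.53 in clone 12. All clone libraries were above the untreated ones, with a wide gap between clone 11 and the rest. The mean log2 difference was 1.93 (SE 0.17, adjusted p = 8.93e-09), and it was called in clones 7 to 11, although in clone 7 (1.05) not without its replicate 1 (0.98). The catalytically inactive ADAM18 was listed at 0 in the 3 untreated libraries. It was at 1.09 to 1.48 in clone 7, at 2.35 to 2.52 in clone 8 and at 2.04 and 2.73 in clone 11, and was called higher in these 3 clones. The other clone libraries of ADAM18 were at 0.730 or lower. ADAM23, an inactive member that binds integrins, was at 8.77 ± 0.575 in untreated cells and between 3.43 in clone 11 and 17.0 in clone 12, and was called lower in clone 11 (-1.18, and -0.84, not called, without replicate 2).

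Among the ADAMTS enzymes that cut large proteoglycans such as versican and aggrecan, 3 of 4 tested rose. ADAMTS1 was at 4.67, 5.05 and 4.25 scaled TPM in untreated cells and from 15.3 to 195 in the clone libraries. Clone 10 held the 2 highest values, 151 and 195, beside 54.0 in the remaining one, and no clone library overlapped untreated. ADAMTS1 rose by 3.20 (SE 0.33, adjusted p = 8.32e-08), in all 7 clones. ADAMTS15 and ADAMTS5 were each under 0.0104 in every untreated library. ADAMTS15 was at 1.27 or more in every clone library outside clone 11, where it was 0.428 and 0.609, and ADAMTS5 ranged from 0.267 in clone 7 to 6.27 in clone 10. The log2 differences were 1.80 (adjusted p = 2.15e-10) and 1.17 (adjusted p = 8.42e-06). ADAMTS15 was called in every clone but clone 11 (0.59). ADAMTS5 was called only in clones 9, 10, 11 and 13, and in clone 13 it was at the fold minimum (1.0007).

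ADAMTS9, the remaining proteoglycanase tested, went in both directions. It was at 13.4, 13.6 and 12.2 in untreated cells, at 38.4, 46.8 and 36.8 in clone 9, at 3.51, 2.33 and 3.08 in clone 7, and at 3.04, 3.43 and 4.03 in clone 8. Clone 9 was above untreated and clones 7 and 8 below, although all 3 were selected in vemurafenib. The log2 differences from untreated were 1.56 in clone 9, -1.83 in clone 7 and -1.65 in clone 8, each called, and the mean over the 7 clones was -0.11 (adjusted p = 0.57). Clone 9 minus clone 7 was 3.39 (SE 0.20, adjusted p = 1.03e-09).

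Of the 3 procollagen N-proteinases, which trim the amino end of fibrillar procollagens, 2 rose. ADAMTS2 was at 0.207, 0.178 and 0.331 scaled TPM in untreated cells, at 41.7 and 35.1 in clone 11, and at 18.6, 23.5 and 15.5 in clone 8. Clone 13 had 4.54, 4.55 and 4.50, clone 7 had 0.656, 0.521 and 0.569, and clone 10 had 1.19, 0.115 and 0.0818. Clones 8 and 11 were far above the others and clone 10 overlapped untreated. The mean log2 difference was 2.08 (SE 0.19, adjusted p = 1.21e-08). Single clones ran from 0.16 in clone 10 to 4.99 in clone 11, and ADAMTS2 was not called in clones 7 and 10. ADAMTS14 went from at most 0.0167 in untreated libraries to 8.78, 11.3 and 3.46 in clone 10, and its other clone libraries lay between 0.320 and 4.70, a log2 difference of 1.50 (adjusted p = 1.30e-06). ADAMTS2 and ADAMTS14 were thus highest in different clones.

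ADAMTS12, which degrades cartilage oligomeric matrix protein, rose in all 7 clones, from 1.12, 1.15 and 1.01 scaled TPM in untreated cells to 47.7, 48.6 and 73.3 in clone 8. Its lowest clone was clone 10, at 7.56, 13.6 and 16.8, still above untreated. The log2 difference was 3.71 (SE 0.17, adjusted p = 3.81e-13), the largest of the ADAMTS family on the log2(scaled TPM + 1) scale, which compresses members near 0 in untreated cells. ADAMTS6, related to ADAMTS10 and active on microfibrils, was at most 0.0307 in untreated libraries, at 8.85 and 11.5 in clone 11 and at 0.500, 0.603 and 1.37 in clone 10. It rose by 2.40 (adjusted p = 3.16e-07), called in every clone but clone 10. ADAMTS7 rose by 1.91 (adjusted p = 9.14e-11), from 0.676 ± 0.117 to clone means of 4.10 to 7.50. The table also lists pseudogene copies of ADAMTS7, between which and the gene the authors' estimation could divide reads, so its level is uncertain.

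ADAMTS17, which acts in microfibril biology, was the ADAMTS gene that fell. It was at 8.07, 8.01 and 7.49 scaled TPM in untreated cells and at no more than 1.67 in the clone libraries, with a median of 0.440 and clone 10 replicate 1 listed at 0. No clone library overlapped untreated, and the fall of 2.58 (SE 0.15, adjusted p = 2.34e-11) was called in all 7 clones. ADAMTSL1 was at 0.0569 or less in untreated libraries, at 18.1, 15.7 and 7.49 in clone 13, at 10.7, 9.60 and 10.7 in clone 9, and at 1.46 and 0.786 in clone 11. It rose by 2.31 (SE 0.41, adjusted p = 9.02e-05), with clone 10 spread from 0.320 to 6.50 and clone 12 from 1.44 to 13.4. Its call in clone 10 (1.33) was 0.56 and lost without clone 10 replicate 1, and at little changed size it was also lost without most other single libraries. The call in clone 8 (1.51) was likewise lost without clone 8 replicate 2 (1.44) or 3 (1.49) or any 1 untreated library. ADAMTSL4 rose by 1.49 (adjusted p = 1.91e-07), from 0.0736 ± 0.0189 to clone means of 1.01 to 3.50. An antisense gene of ADAMTSL4 is in the table, and whether the estimation used strand is not given in the sources used here.

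**Figure D4:**
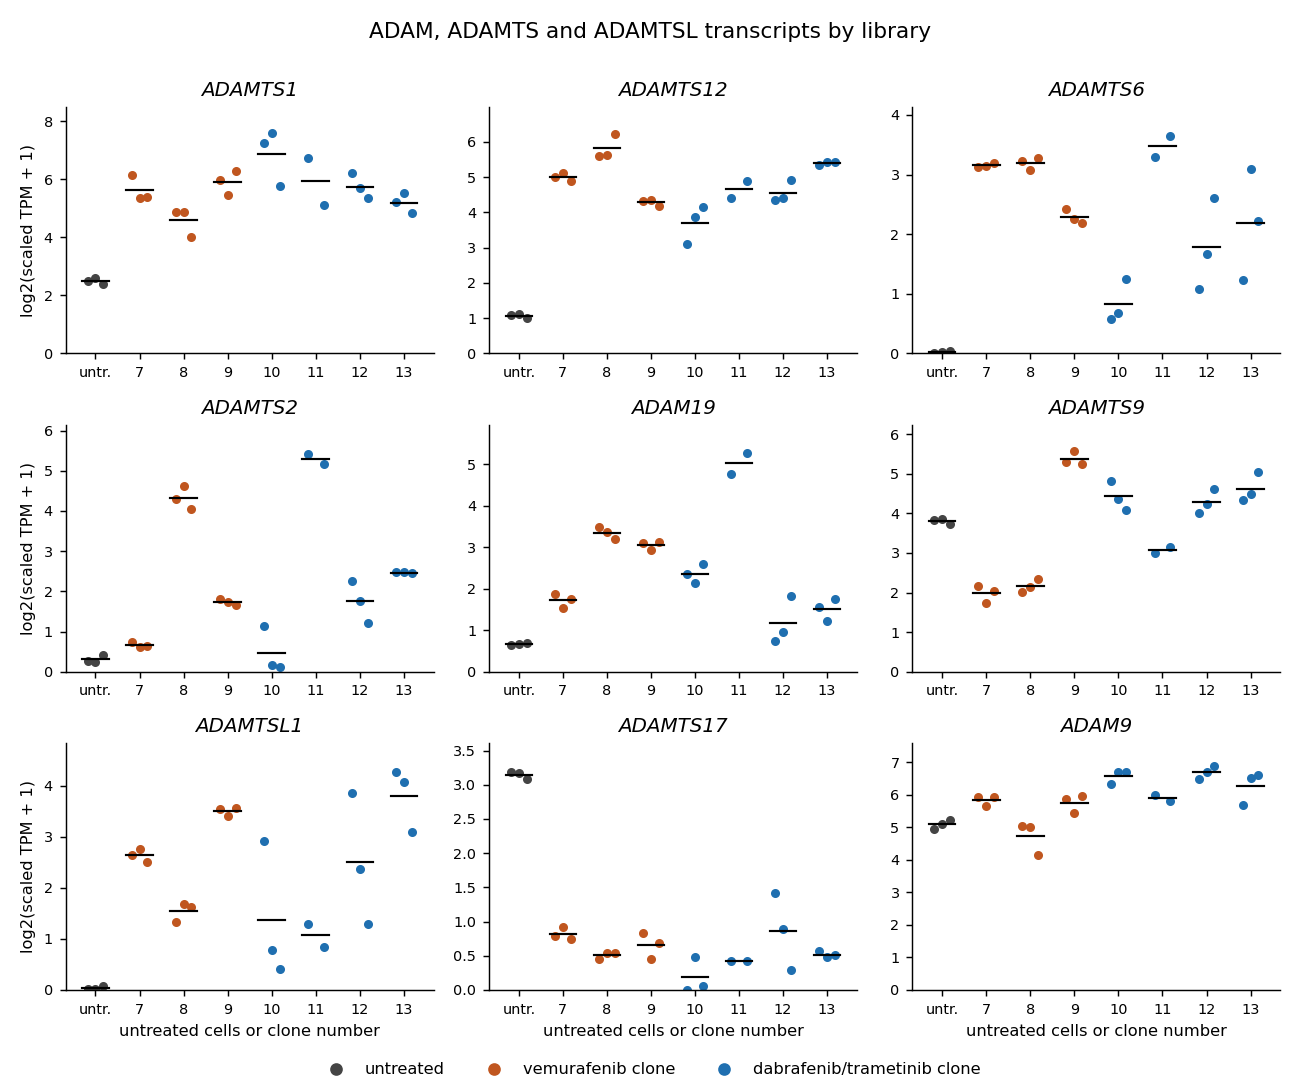
Levels of 9 ADAM, ADAMTS and ADAMTSL genes in each library, as log2(scaled TPM + 1), for untreated cells and clones 7 to 13; points are libraries and bars are group means. ADAMTS1 and ADAMTS12 are up in every clone library, ADAMTS2 and ADAM19 peak in clones 8 and 11, ADAMTS9 is split between clone 9 and clones 7 and 8, and ADAMTS17 is near 0 in the clones.

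Each clone was then set against the same untreated libraries, which the 7 comparisons share. In clone 7, 19 members rose and 4 fell, where 11% and 8.54% of all genes did. Clone 8 had 17 members higher and 4 lower (11% and 9.29% of all genes). Clone 9 had 17 higher and 3 lower (11.5% and 8.29%). Those of clone 10 were 16 and 4 (11.8% and 10.5%), and those of clone 11 were 17 and 4 (11.7% and 9.53%). Clone 12 had 18 higher and 3 lower (11.5% and 8.02%), and clone 13, with the most calls, 21 and 3 (12.3% and 8.35%). The share of the 47 tested members that rose was therefore 34% to 44.7% in each clone, above the share of all genes, and the share that fell was 6.38% to 8.51%, near it.

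The 7 members higher in all 7 clones were MMP1, MMP2, MMP11, TIMP1, ADAMTS1, ADAMTS7 and ADAMTS12, where 4.87% of all genes were. The 3 lower in all 7 were MMP8, MMP17 and ADAMTS17, where 4.18% of all genes were. Members with no call in any clone numbered 17, among them ADAM10, ADAM15, ADAM17, MMP14 and TIMP2, and 62% of all genes were called in no clone. Without regard to the test, 19 members had every clone library above every untreated library, against 14.5% of all genes, and 4 had every clone library below, against 13.3%.

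**Figure D5:**
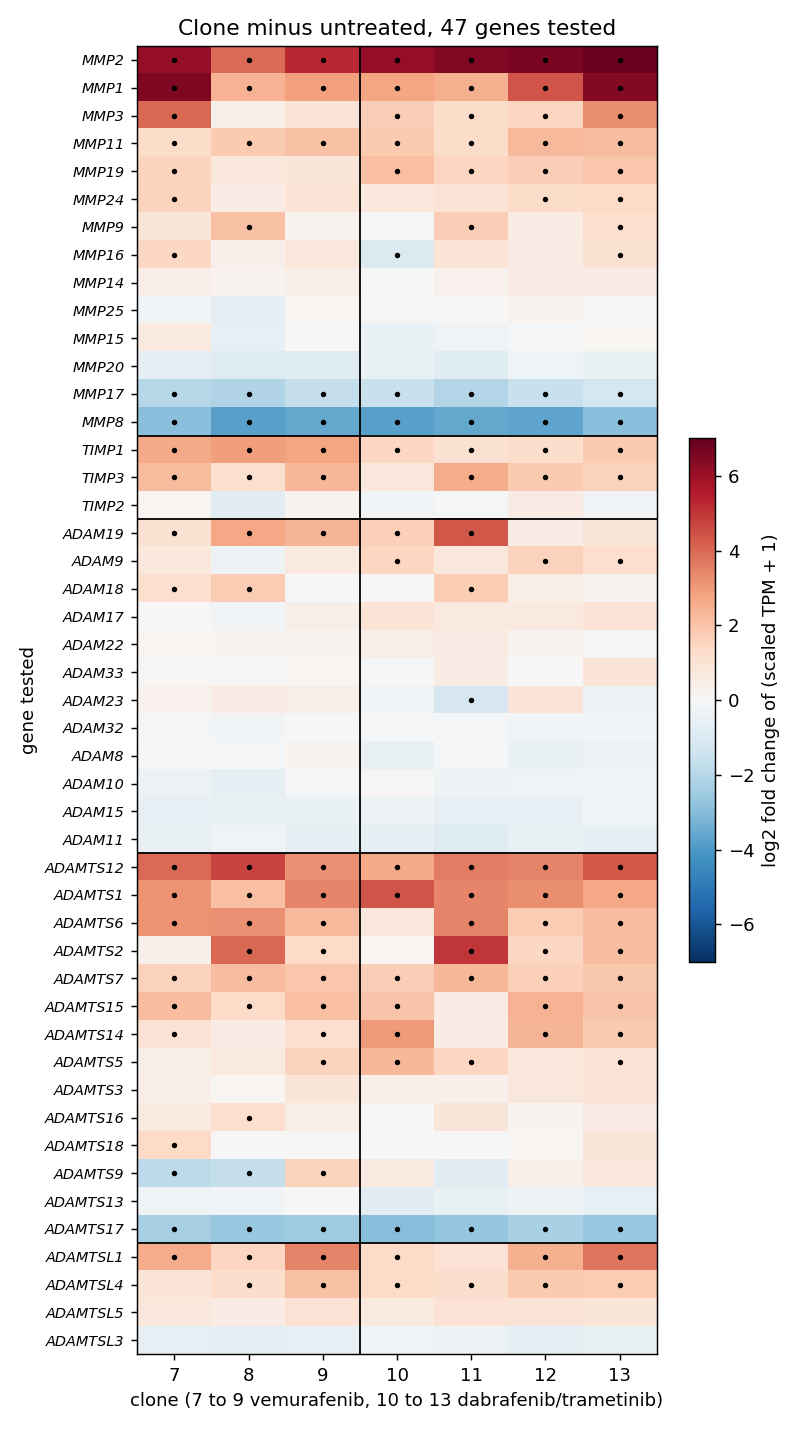
Log2 difference from untreated cells of the 47 tested members (rows) in clones 7 to 13 (columns), coloured from blue for lower to red for higher, with a dot where the difference was called. The 7 members called higher and the 3 called lower in all clones form full rows, and ADAMTS9 and MMP16 hold dots of both directions.

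The clones also differed from each other. An F test of equality over the clone groups, which also required clone means to span 1 log2 unit, called 29 of the 47 members and 25.3% of all genes. The widest ranges between clone means were 4.83 for ADAMTS2 (adjusted p = 1.84e-10), 4.09 for MMP1, 3.85 for ADAM19, 3.57 for MMP3, 3.39 for ADAMTS9 and 2.91 for MMP2. At the other end, ADAM10, ADAM15, MMP14, MMP8, MMP17 and ADAMTS17 each had a range under 1. The 3 genes lower in all clones thus spanned less than 1 log2 unit, a scale that compresses levels as low as those of MMP8 and ADAMTS17, and MMP8 had an F test adjusted p of 8.78e-05.

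Over the 21 pairs of clones there were 200 member calls in 987 tests of a member and a pair, 20.3%, against 6.16% over all genes. Clones 12 and 13 differed in 2 members, ADAM23 and MMP3 (1.52% of all genes were called for that pair), and clones 8 and 10 in 17 (12.1% of all genes). The median was 10 members over the 3 vemurafenib pairs, 9.5 over the 6 dabrafenib/trametinib pairs and 9.5 over the 12 pairs across the arms, with median shares of all genes of 4.91%, 5.52% and 6.87%. ADAMTS2 was called in 16 pairs, ADAMTS9 in 14 and ADAM19 in 13. Pairs within an arm and pairs across the arms thus gave like median numbers of member calls, but the ranges differed. They were 9 to 12 for vemurafenib pairs, 2 to 11 for dabrafenib/trametinib pairs and 3 to 17 across the arms.

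Against each of the other 6 clones, 4 members were called in the same direction, where 2.96% of all genes were. ADAM19 was higher in clone 11, at a mean of 32.0 scaled TPM against 1.38 to 9.26, with a smallest difference of 1.67. MMP2 was lower in clone 8, at 319.6 against 792 to 2464, and ADAM9 was lower in clone 8, at 26.6 against 53.7 to 103. MMP16 was lower in clone 10, at 0.258 against 2.37 to 5.92. The call of ADAM9 against all 6 others was lost without clone 8 replicate 3, clone 9 replicate 1 or 3, or clone 11 replicate 2, and the other 3 were called under every such omission. Clone 8 thus had the lowest MMP2 and ADAM9 means of the 7 clones.

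For the drug arms the clone was the unit, 3 vemurafenib clones against 4 dabrafenib/trametinib clones, and limma called 0 members, with 7 members at an unadjusted p under 0.05. Of all genes 0.0128% were called and 14.4% had such a p, so the members' share, 14.9%, was near that of all genes. TIMP1 had clone means of 2237 to 2925 scaled TPM under vemurafenib and 743 to 1251 under dabrafenib/trametinib, a log2 difference of 1.38 (SE 0.20, adjusted p = 0.149). TIMP1 was also the 1 member whose libraries did not overlap between the arms, where 1.33% of all genes did not. MMP2 had clone means of 319.6 to 1464 under vemurafenib and 1519.7 to 2464 under dabrafenib/trametinib, a difference of -1.41 (adjusted p = 0.268) that was -0.83 without clone 8. ADAM17 was at 9.93 to 14.6 and 16.9 to 22.5 (-0.73, adjusted p = 0.213), and ADAM9 at 26.6 to 57.1 and 59.1 to 103 (-0.91, adjusted p = 0.268, and -0.55 without clone 8). None of these differences passed the adjusted test, and the drug cannot be told apart from the clones that were picked under it.

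The genes around these families were counted in the same fit. Of 13 tested genes that control MMP or TIMP activity, 4 rose and 2 fell, where 10.9% and 7.91% of all tested genes did. TFPI2, a serine protease inhibitor of the matrix, rose by 6.22 on the log2 scale, and RECK, a membrane-anchored MMP inhibitor, by 2.13. PLAU, the urokinase that produces the MMP activator plasmin, fell by 2.64. TFPI2 and RECK rose in all 7 clones, as did MMP1 and MMP2, whereas MMP3 was not called in clones 8 and 9. A2M, in the same list, went the other way. It was called lower in clones 9 (-2.54) and 10 (-2.78), and its mean difference of -1.05 was not called (adjusted p = 0.196).

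Of 9 tested partners of ADAM10 and ADAM17, 1 rose and 3 fell, where 10.9% and 7.91% of all tested genes did. The tetraspanins that steer ADAM10 moved apart: TSPAN5 rose from 1.82 ± 0.0787 scaled TPM to clone means of 10.8 to 31.0, whereas TSPAN14 fell from 99.2 ± 4.44 to 14.2 to 23.1 and TSPAN10 from 323 ± 23.2 to 37.7 to 160 (log2 differences 3.08, -2.39 and -2.31). TSPAN33 fell by 1.49 in the mean of the clones but was called higher in 1 clone and lower in 5. Of 18 tested proteins known to be shed by these enzymes, 7 rose and 1 fell, beside the same shares of all genes. The 4 with the largest differences were the receptor tyrosine kinase AXL, at 5.46, the heparan sulphate proteoglycan SDC1, at 4.81, the ERBB ligand NRG1, at 3.73, and the adhesion molecule ALCAM, at 3.43, all in 7 clones. ADAM10 and ADAM17 themselves were called in none, with ADAM17 just under the fold minimum in clones 10 and 13.

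Of 12 tested substrates and partners of ADAMTS and ADAMTSL proteins, 9 rose and 1 fell, where 10.9% and 7.91% of all tested genes did. Their median difference was 3.07. COL1A1 and COL3A1, procollagen substrates of ADAMTS2 and members of the fibroblast marker list, rose by 8.66 and 5.39, and LTBP1, a microfibril protein that holds latent TGF-beta, by 5.38. BCAN, the neural proteoglycan brevican, a substrate of ADAMTS4 and ADAMTS5, fell by 5.39, from 81.3 ± 0.587 scaled TPM to clone means of 0.255 to 2.17. COL1A1 and LTBP1 rose in every clone. In clones 7 and 10 ADAMTS2 was not called, but ADAMTS14, also a procollagen N-proteinase, was called higher there (1.03 and 3.01). In clone 7 that call was lost without its replicate 1 (0.97).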

How the data were processed

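Poly(A) RNA of 23 libraries in 8 groups was sequenced with paired ends, and samples were randomised before extraction, per the labels' protocols. The deposited table holds TPM values by the authors, read as TPM because each column sums to the same total although the table is named as counts. Per the submitters' processing notes, kallisto and hg19 were used. Their version, the transcript annotation and strand handling were not given in the sources used here. Depth is unknown, so precision rests on the spread between libraries. The labels use the term biological replicate but do not state what separated the cultures, and p-values then measure the spread between these libraries, which may be technical.

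Here TPM was scaled by a trimmed mean of log ratios (30% of ratios and 5% of mean levels trimmed, 10822 genes with at least 1 TPM in every library). Genes with at least 1 TPM in at least 2 libraries, 15657 in all, were fitted as log2(scaled TPM + 1) with limma 3.58.1 (eBayes with trend, R 4.3.3) in 8 groups, with Benjamini-Hochberg adjustment over all genes. A pseudocount of 1 understates the change of low genes. Contrasts were the mean of the 7 clones and each clone against untreated, an F test among clones (6 degrees of freedom), 21 pairs of clones, and the drug arms on clone means. A gene specific to a clone was called in the same direction against the other 6. The procedure was tested on simulated data.

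Members were counted in full. Values are given for a panel (the 4 TIMP genes, MMP1, MMP2, MMP3, MMP9, MMP14 to MMP17, ADAM9, ADAM10, ADAM12, ADAM15, ADAM17, ADAM19, ADAMTS1, ADAMTS2, ADAMTS5, ADAMTS12, ADAMTSL1), members called in the mean of the clones, members called among clones with a clone mean of at least 4 scaled TPM, members specific to a clone, and up to 4 called genes of each related list; a few items under this rule are not reported here. ADAM18, MMP20, A2M and the untested members named were added after their values were seen. Members and lists were chosen with earlier results of these data known. Alternatives were no scaling, median-of-ratios scaling, a pseudocount of 0.1, no filter on low values, no trend, a replicate block, and leaving out each library or clone. Promoter sequences and gene order come from RefSeq (GRCh38.p14) and were joined by symbol.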

Additional observations from a re-analysis of the deposited data

Results flagged for a closer look

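In 2 members clones were called in opposite directions against the same untreated libraries, where 0.422% of all tested genes were. The difference between clones was itself tested by limma, and the pair given for each member is the one with its largest difference. ADAMTS9, a proteoglycanase, was higher in clone 9 than in clone 7 by 3.39 on the log2 scale (SE 0.20, adjusted p = 1.03e-09), with all 3 libraries of clone 9 above and all 3 of clone 7 below the untreated range. MMP16, a membrane-type MMP, differed between clone 10 and clone 7 by -2.45 (SE 0.26, adjusted p = 1.01e-06). Its lower call in clone 10 against untreated (-1.03) was at the fold minimum. That call was lost without clone 10 replicate 3 or untreated replicate 2 or 3.

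MMP16 also stood apart in clone 10 when the 7 clone means were ordered: the gap from clone 10 to the next lowest clone was 0.569 of the whole range, just past the limit for 7 values. This was 1 of 66 such checks, of which chance gives about 1 in 20. MMP16 is low, with 0.190 to 0.317 scaled TPM in clone 10.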

How the results depend on the processing

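Of 37 results for single members, 32 kept direction and side of the threshold under every alternative. With values as deposited, small differences near 0 turned sign: ADAMTS9 to 0.063, MMP15 to 0.035 and TIMP2 to 0.13, and ADAM9 (1.05) and MMP9 (1.00) passed the fold minimum; MMP9 also did with a pseudocount of 0.1 (1.30). Values as deposited moved the median of all genes from -0.01 to 0.14, and their split from 1700 higher and 1239 lower to 2006 and 973; among called members the share higher went from 86.4% to 87.5%. The count of members higher in clone 11 went from 17 to 26 with a pseudocount of 0.1; the cause was not tested. Leaving out 1 library at a time gave 19 members higher and 3 lower against untreated in each case. Of the 150 calls of a member in single clones, 11 were lost under at least 1 omission: ADAMTSL1 in clones 8 and 10, MMP16 in 10 and 13, MMP1, MMP3, TIMP1 and ADAM23 in 11, ADAMTS5 in 13, and ADAM19 and ADAMTS14 in 7. Clone 11 without a library has 1, assumed to vary like the other groups. Other calls were gained under at least 1 omission, among them ADAM17 in clones 10 and 13. Calls among clones were lost for ADAM17, MMP11 and MMP24 under some omissions. With a replicate block, 19 members were higher and 3 lower, and no count of calls moved by over 1.5 times. Between groups, 28 of 77 same-numbered pairs of libraries correlated above 0.1 (median r 0.01, -0.62 to 0.42). Of the different-numbered pairs, 47 of 154 did (median r -0.009, -0.574 to 0.715). Of 23 libraries, 12 correlated best with a library of their own number, and whether the numbers pair the libraries was not settled. These correlations cover all tested genes, whereas the MMP sum fell with the replicate number in clones 7, 10, 11, 12 and 13. Without depth, the counting error of low members such as ADAM18 and MMP16 cannot be estimated, and 24 members were too low to be tested.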
